A study of Mus musculus with 23 samples.

Results

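Semaphorins, ephrins, slits and netrins are the classical secreted or membrane-bound cues of axon guidance, and plexins, neuropilins, Eph receptors, Robo receptors and Unc5 receptors are the proteins that read them. Their mRNAs were compared between hippocampal neurons that had received the CRE recombinase, which deletes Nedd8, and neurons that had received RFP alone. Members were the protein-coding genes of the GRCm39 annotation that carry a symbol of these 9 families, semaphorins, plexins, neuropilins, ephrins, Eph receptors, slits, Robo receptors, netrins of the Ntn series and Unc5 receptors, and that had at least 50 reads summed over all 23 libraries. Of 68 matching symbols, 65 passed, out of 56941 genes in the count tables. Ntn5 with 13 reads, Sema3g with 15 and Robo4 with 15 fell outside, and the member nearest to the limit was Epha1 with 112 reads, followed by Efna1 with 296. There were 33 ligand genes and 32 receptor genes.

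All libraries came from primary hippocampal cultures of newborn (P0) homozygous NEDD8cKO mice, in which CRE inactivates Nedd8, so that the RFP group carries the same floxed alleles as the CRE group. The cultures were infected on day 1 in vitro with a lentivirus that expressed RFP, or CRE together with RFP, from the Synapsin1 promoter, which is active in neurons. The glia present in these mixed cultures are therefore not the intended target of CRE. The labels give day 12 in vitro for the harvest and the study's methods give day 13. Library names such as CRE1-3 hold the group, a number from 1 to 3 that is read here as the culture, and the number of the library. Behind the libraries stand 3 biological replicates, per the study's legends, which are read here as the 3 cultures. Libraries of a culture are then repeated samples of it, so that p-values over libraries measure a spread that may be technical in part and can be too small. Reads summed per culture were therefore fitted as well.

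The 21 libraries of the study's count table, 11 CRE and 10 RFP, were compared. They held 7430401 to 13345552 assigned reads in the CRE group (median 11082822) and 9833872 to 17112815 in the RFP group (median 11569225), of which 32607 to 76496 per library fell on the 65 genes. Nedd8 had 5.92, 12.1 and 18 CPM (read counts scaled to a common library size; lowest, median and highest library) in CRE and 44.1, 62.4 and 76.0 in RFP, and every CRE library lay below every RFP library. CRE1-3 stood apart, with 0.261% mitochondrial reads. RFP2-4 had 3.43%, and the other 19 libraries had 7.0% to 11.1%. CRE1-3 was the highest CRE library for 28 members and the lowest for 19, so values without it are given wherever it decides a result. CRE3-3, with 1546796 reads, and RFP3-2, with 24.2% of its reads on the ribosomal gene Rn18s-rs5, were not among the 21. In RNA of a whole culture, fewer cells of a type and less RNA per cell cannot be told apart.

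Guidance cues steer growing axons by attraction or repulsion, and many of them act again when dendrites branch and synapses form. Semaphorins bind plexins, and most class 3 semaphorins need a neuropilin as co-receptor. Ephrin-A ligands are held to the membrane by a lipid anchor and ephrin-B ligands by a transmembrane segment, and their receptor tyrosine kinases, EphA and EphB, mostly keep to ligands of the same letter. Slits repel through Robo receptors, whereas netrins attract through Dcc and repel where an Unc5 receptor takes part. In the hippocampus these systems help to lay out mossy fibres, entorhinal inputs and commissural axons.

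Of the 65 members, 63 passed the filter on low counts and were tested. At an adjusted p under 0.05 (edgeR quasi-likelihood test, Benjamini-Hochberg over 14488 genes) 34 members were called, or 54.0%, against 30.2% of all genes tested. Of these, 14 were higher in CRE and 20 were lower, where 16.4% of all genes were called higher and 13.8% lower. The median log2 fold change, CRE against RFP, was -0.21 over the members and 0.02 over all genes. Ligands and receptors were called about as often, 18 of 32 and 16 of 31, but 10 of the called ligands were higher and 8 lower, while 4 of the called receptors were higher and 12 lower. Without CRE1-3, 38 members were called, 13 higher and 25 lower, against 38.0% of all genes (19.2% higher, 18.7% lower). The calls of 30 of the 34 members held with each of the 21 libraries left out in turn. Sema3e, Sema4b, Ephb3 and Robo2 each lost the call without at least 1 library.

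Other ways of fitting moved both the count of members and that of all genes, and Efna1 was among the members tested in some of them. The libraries that Methods keeps gave 38 members against 37.9% of all genes, all 23 libraries 30 against 28.2%, and the set without the 3 libraries of skewed GC content 38 against 38.0%. Leaving CRE1-3 and RFP2-4 out of the 21 libraries, a choice made after seeing the data, gave 42 against 38.1%. DESeq2 called 36 against 23.9%, RLE factors gave 33 against 30.1%, no filter on low counts 33 against 21.2%, and reads summed per culture, which leaves 3 samples in each group, 33 of 65 against 22.8%. With the culture or the library number as a term the counts were 34 against 29.5% and 33 against 29.2%. Without culture 1 there were 33 against 25.9%, and without culture 3 there were 24 against 22.8%. Without culture 2 there were 19 against 14.3%, 8 higher (8.89% of all genes) and 11 lower (5.45%).

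**Figure D1:**
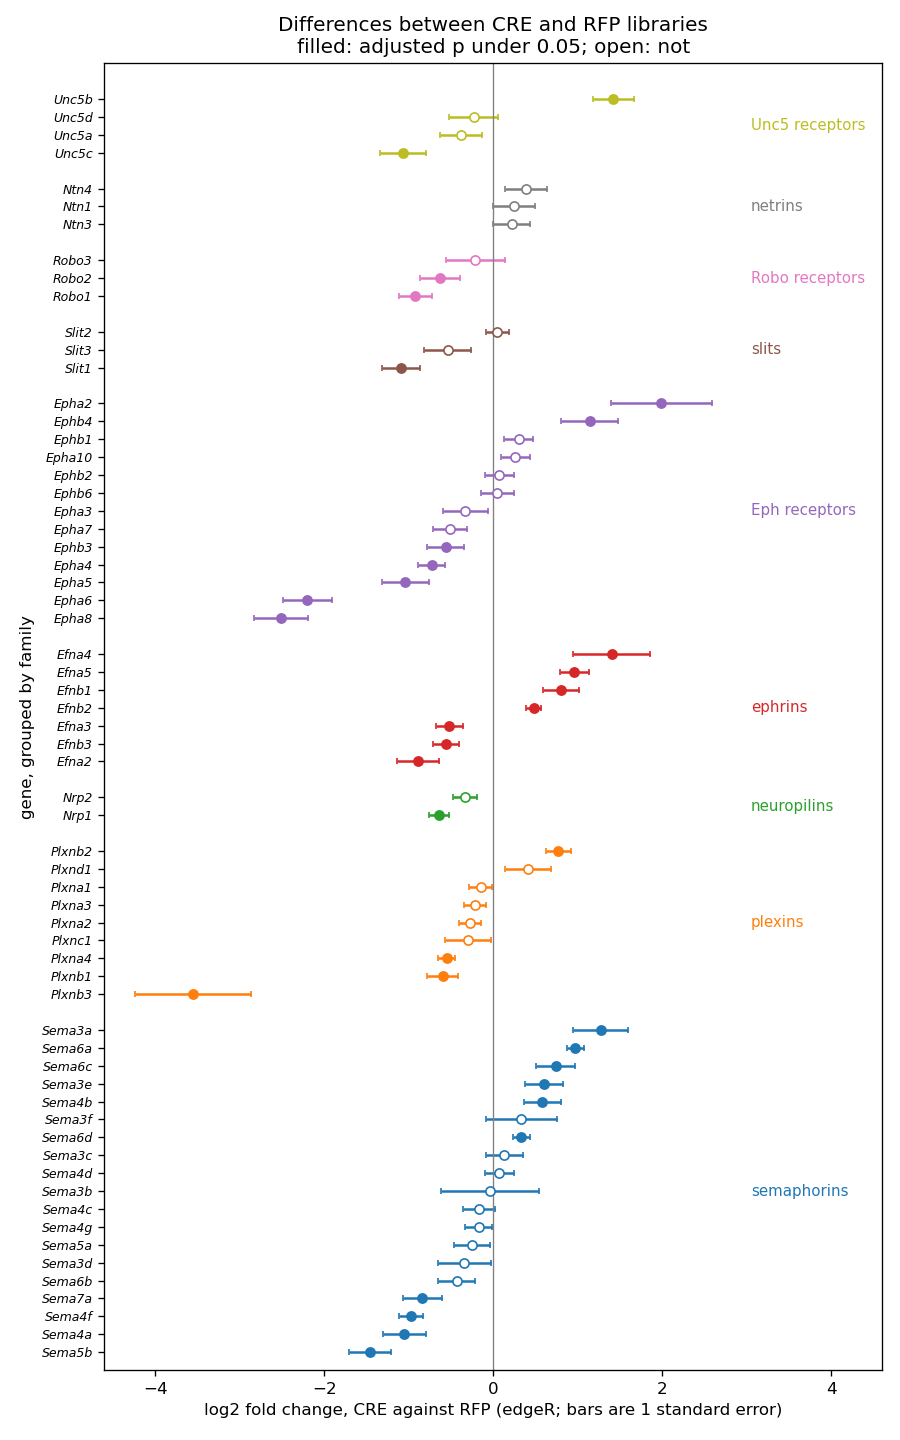
Log2 fold change of the 63 tested genes, CRE against RFP, grouped by family; points are edgeR estimates over 11 CRE and 10 RFP libraries, bars are 1 standard error, and filled points passed an adjusted p under 0.05. The 7 tested ephrins are all filled, on both sides of 0, the 3 netrins are all open, and Plxnb3 lies farthest to the left at -3.55.

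A stricter criterion is that the groups do not overlap at all. In 4 members, Sema6a and Efna5 above and Epha6 and Epha8 below, all 11 CRE libraries lay on the same side of all 10 RFP libraries, which is 4 of 63 where 4.72% of all genes tested did so. Leaving CRE1-3 aside, Sema3a joined above and Sema4f, Slit1 and Unc5a below, 8 members in all, against 6.76% of all genes. The difference between group means had the same sign in all 3 cultures for 43 of the 63 members, against 54.9% of all genes, and for 32 of the 34 called members. The exceptions were Sema3e and Ephb3.

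**Figure D2:**
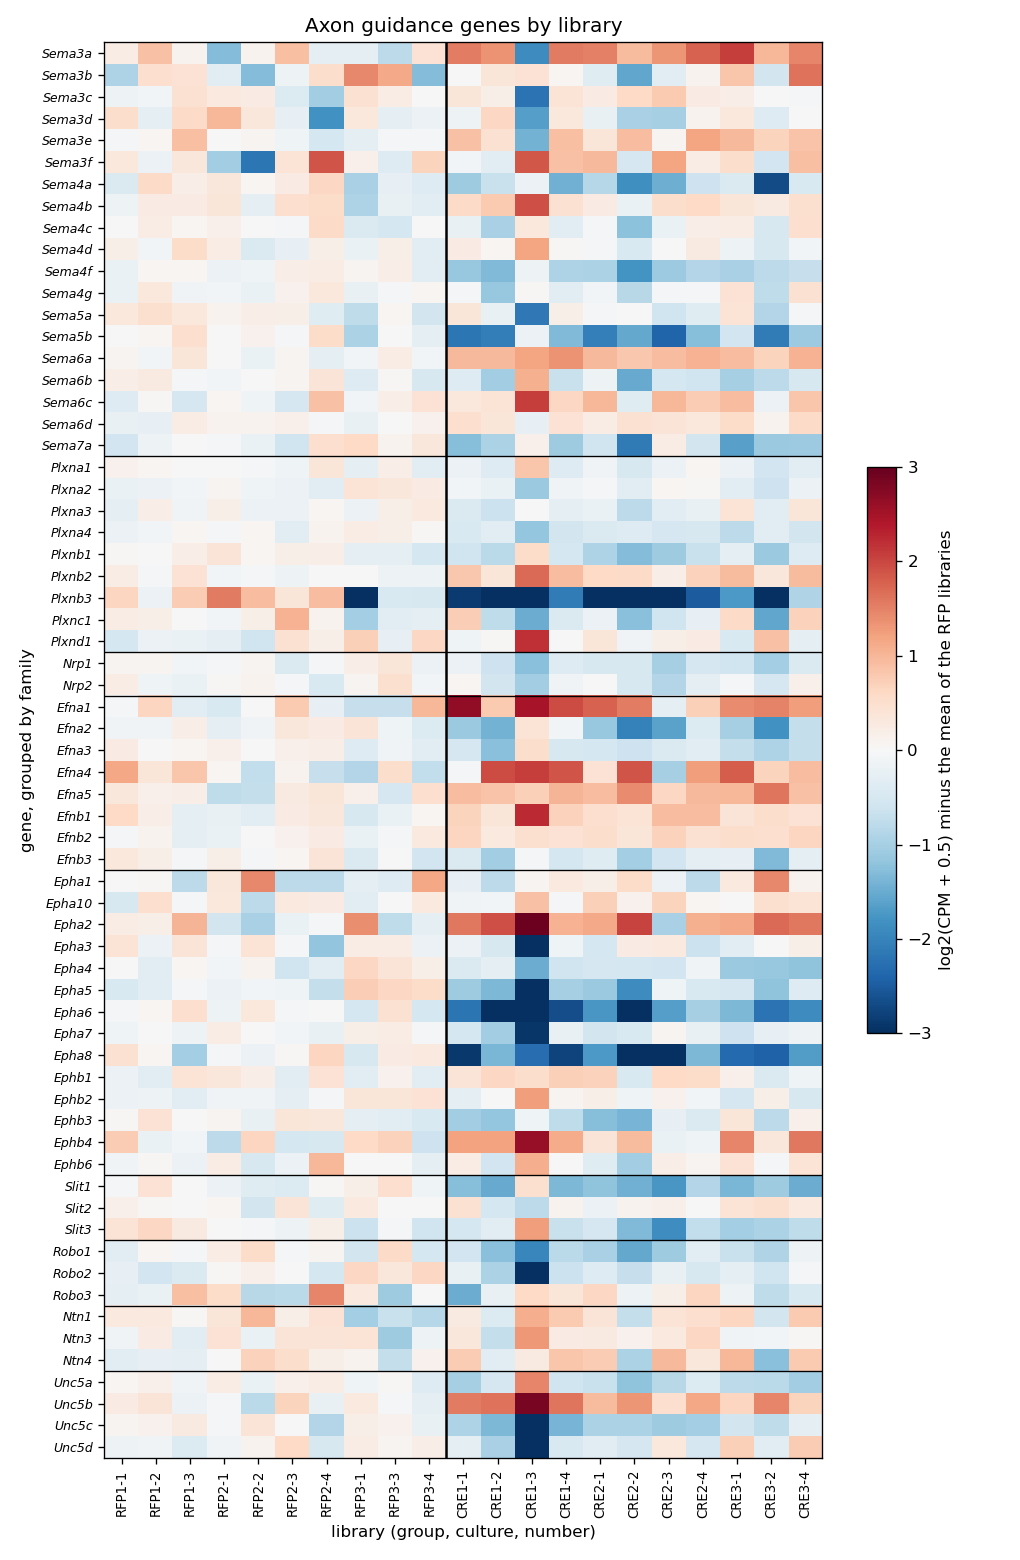
Level of the 65 genes (rows, by family) in 10 RFP and 11 CRE libraries (columns), as log2(CPM + 0.5) minus the mean of the RFP libraries. Sema6a is red and Epha6 and Epha8 are blue in every CRE library, while the column of CRE1-3 differs from the other CRE columns for many genes, among them Unc5a and Slit3, which are red in it.

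Because CRE removes the modifier that activates cullin ubiquitin ligases, the sequence before the genes that differed most is shown first. CUL3 with KEAP1 keeps the factor NRF2 low and CUL2 with VHL keeps HIF1 low, and these bind the antioxidant response element and the hypoxia response element. Neurogenic bHLH factors bind E-boxes. The 250 bases before the annotated start of the 2 genes with the largest positive and the 2 with the largest negative log2 fold changes among the called members were read from GRCm39 on the gene's strand, 5′ to 3′. Capitals mark TGACNNNGC (antioxidant response element), ACGTG (hypoxia response element) or CAGCTG (E-box), searched on both strands.
Epha2, chr4:141028290-141028539, plus strand: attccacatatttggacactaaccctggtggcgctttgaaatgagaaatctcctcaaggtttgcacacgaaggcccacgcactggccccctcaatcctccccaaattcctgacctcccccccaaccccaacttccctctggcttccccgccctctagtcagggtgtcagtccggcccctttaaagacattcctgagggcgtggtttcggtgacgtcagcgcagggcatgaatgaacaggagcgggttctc
Unc5b, chr10:60667397-60667646, minus strand: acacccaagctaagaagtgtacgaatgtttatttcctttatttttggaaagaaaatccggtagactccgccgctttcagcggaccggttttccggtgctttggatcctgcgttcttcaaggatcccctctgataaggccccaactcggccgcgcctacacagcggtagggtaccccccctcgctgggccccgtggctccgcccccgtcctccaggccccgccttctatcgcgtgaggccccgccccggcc
Plxnb3, chrX:72800370-72800619, plus strand: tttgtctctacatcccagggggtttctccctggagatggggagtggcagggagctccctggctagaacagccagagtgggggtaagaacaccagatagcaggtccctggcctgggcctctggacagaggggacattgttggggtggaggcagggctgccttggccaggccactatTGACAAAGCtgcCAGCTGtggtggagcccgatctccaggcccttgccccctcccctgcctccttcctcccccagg
Epha8, chr4:136684203-136684452, minus strand: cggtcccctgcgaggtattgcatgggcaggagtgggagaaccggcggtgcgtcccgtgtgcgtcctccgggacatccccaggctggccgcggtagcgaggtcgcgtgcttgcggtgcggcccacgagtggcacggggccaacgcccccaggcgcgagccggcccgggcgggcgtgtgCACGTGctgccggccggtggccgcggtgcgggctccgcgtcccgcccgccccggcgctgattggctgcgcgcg

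These windows differ in make-up. That of Plxnb3 was nearly free of CpG, with an observed over expected ratio of 0.0401, and that of Epha8 was rich in it, with a ratio of 1.04. In the Epha8 window the capitals are ACGTG read once on each strand. Over all members, 9 of 65 windows (13.8%) held the antioxidant element, against 9.67% of the windows of 21667 protein-coding genes and 10.7% of those of the 12970 among the genes tested. The hypoxia element was held by 9 of 65 (13.8%), against 17.0% and 20.9%, and CAGCTG by 12.3%, against 11.9% and 11.2%. Among the members called higher, 4 of 14 windows held the antioxidant element and 1 of 14 the hypoxia element. Among those called lower the counts were 3 of 20 and 5 of 20. A match is a run of letters and not a measured site.

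The semaphorins were the largest family, with 19 members, and 10 of them were called, 6 higher and 4 lower, with a median log2 fold change of -0.04. Of the secreted class 3, 2 of 6 were called, both higher. Sema3a, the archetypal growth cone repellent, had 1.67, 5.33 and 9.53 CPM in RFP and 0.954, 14.2 and 22.0 CPM in CRE (lowest, median and highest library, here and below). Of the 11 CRE libraries 10 lay above all RFP libraries, and CRE1-3 lay below them all. The fold was 2.41 (log2 fold change 1.27, SE 0.33, adjusted p = 0.00468). Sema3e, which signals through Plxnd1 without a neuropilin, ran from 15.4 to 42.2 CPM in RFP (median 22.0) and from 8.04 to 51.8 CPM in CRE (median 40.9), so that the groups overlapped. Its log2 fold change was 0.60 (SE 0.22, adjusted p = 0.0360), with differences of -0.11, 0.79 and 0.95 in cultures 1, 2 and 3. Its call held without only 4 of the 21 libraries. Sema3b, Sema3c, Sema3d and Sema3f were not called, with log2 fold changes of -0.34 to 0.33 and adjusted p of 0.446 to 0.971.

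Class 4 semaphorins span the membrane and act on plexin B receptors and, in some cases, on other receptors. Sema4f, found at glutamatergic synapses, had 58.0, 76.0 and 84.4 CPM in RFP and 20.5, 37.4 and 65.4 CPM in CRE. Only CRE1-3 reached into the RFP range, and the level was 1.95-fold lower in CRE (log2 fold change -0.97, SE 0.14, adjusted p = 1.06e-05). Sema4a was 2.07-fold lower, from a median of 23.3 CPM (10.6 to 32.9) in RFP to 11.5 CPM (2.87 to 18.7) in CRE, with an SE of 0.25 on the log2 scale and an adjusted p of 0.00253. The 2 groups of Sema4a overlapped, and 5 CRE libraries lay below all RFP libraries. Sema4b went the other way, from a median of 23.7 CPM (11.8 to 33.3) in RFP to 31.8 CPM (19.7 to 88.5) in CRE, with a log2 fold change of 0.58 (SE 0.22, adjusted p = 0.0439). The highest value of Sema4b was that of CRE1-3, and without that library the log2 fold change was 0.35 with an adjusted p of 0.0766. The call of Sema4b held without only 4 of the 21 libraries. Sema4c, Sema4d and Sema4g were not called, at log2 fold changes of -0.17, 0.07 and -0.17. Exons of Sema4d overlap those of Secisbp2 on the other strand by 1766 bases and exons of Sema4g those of Mrpl43 by 1181 bases, and the strand setting of the counting was not given in the sources used here.

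Class 5 and class 7 semaphorins were lower or not called. Sema5b, a transmembrane semaphorin with thrombospondin repeats that limits synapse number in hippocampal neurons, had 18.8, 36.8 and 54.0 CPM in RFP and 6.49, 12.3 and 32.1 CPM in CRE. The highest CRE value was again CRE1-3, and 9 of 11 CRE libraries lay below all RFP libraries. Sema5b was 2.74-fold lower (log2 fold change -1.46, SE 0.25, adjusted p = 7.45e-05). Its relative Sema5a was at -0.25 (SE 0.21, adjusted p = 0.414). Sema7a, which is anchored by a lipid and binds Plxnc1 and integrins, had the highest level of the family in RFP per kilobase of exon, 23.8 CPM per kb. It ran from 50.5 to 116 CPM in RFP (median 74.7) and from 17.1 to 88.5 CPM in CRE (median 36.0), with 7 CRE libraries below all RFP libraries. The decrease in Sema7a was 1.78-fold (log2 fold change -0.84, SE 0.23, adjusted p = 0.00740), and the differences were -0.53, -0.68 and -1.63 in cultures 1, 2 and 3.

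Class 6 semaphorins are transmembrane ligands of plexin A receptors and also act as receptors themselves. Sema6a had 53.5, 62.8 and 84.0 CPM in RFP and 103, 128 and 165 CPM in CRE, with no overlap. It was 1.96-fold higher (log2 fold change 0.97, SE 0.10, adjusted p = 4.11e-08), the smallest adjusted p of all 63 tested members, and the differences of 1.00, 1.04 and 0.86 in the 3 cultures lay close together. Sema6c rose 1.67-fold, from a median of 47.3 CPM (33.6 to 89.6) to 82.7 CPM (37.3 to 205), with an adjusted p of 0.0168. The groups of Sema6c overlapped, and 205 CPM was the value of CRE1-3. Sema6d rose 1.25-fold, from a median of 143 CPM (115 to 161) to 181 CPM (116 to 206), with an adjusted p of 0.0157, and 9 CRE libraries lay above all RFP libraries. The fourth member, Sema6b, was not called over the 21 libraries (log2 fold change -0.43, SE 0.22, adjusted p = 0.141). CRE1-3 had 241 CPM of it, above all RFP libraries, while 7 other CRE libraries lay below all of them, and without CRE1-3 the value was -0.72 (adjusted p = 9.73e-05). With that library left out, Sema6b is thus the class 6 member that was lower in CRE while the other 3 were higher.

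**Figure D3:**
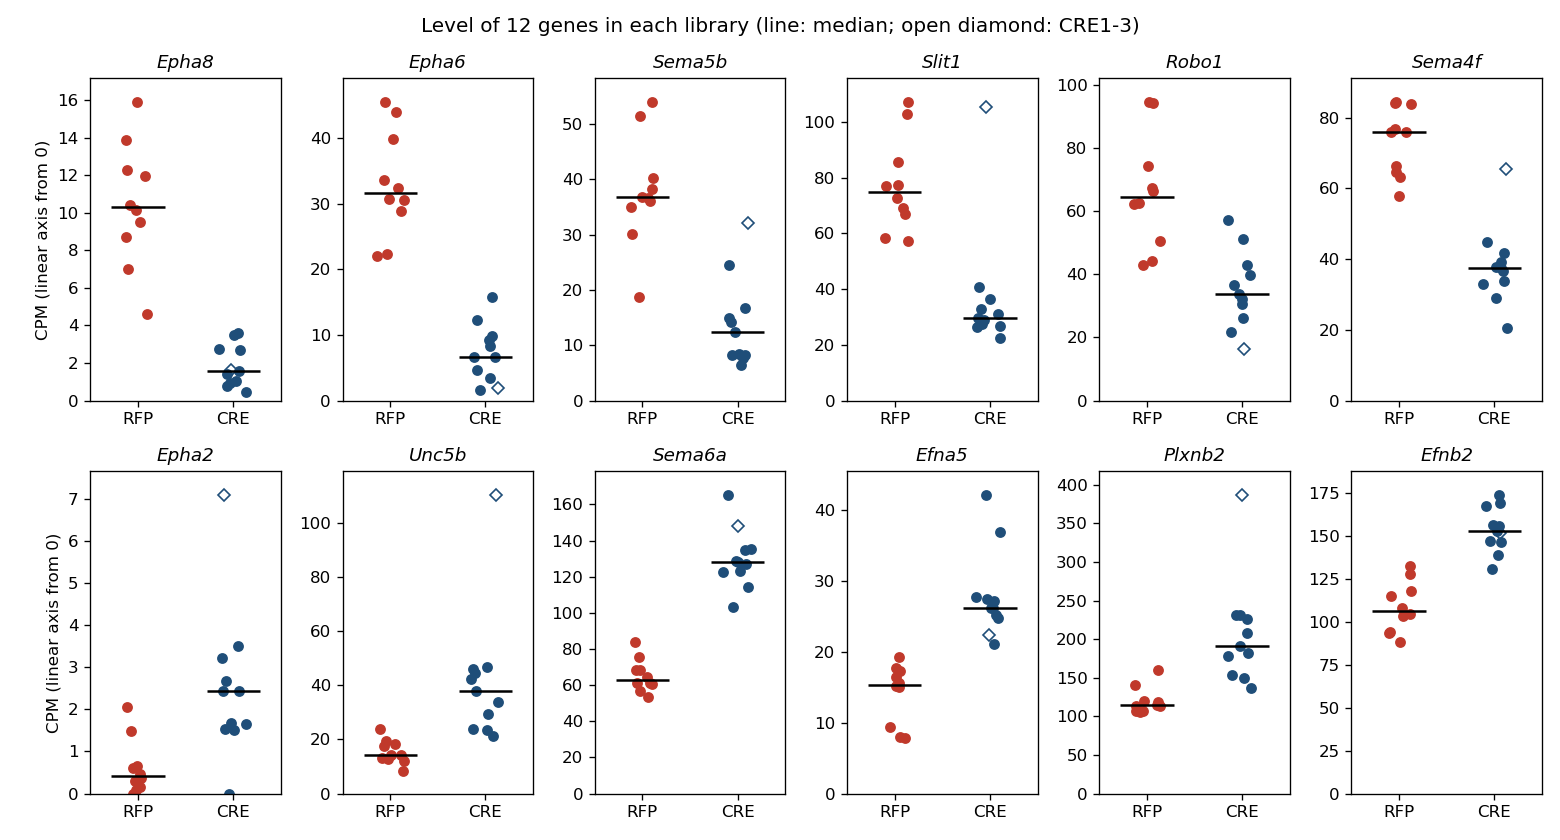
CPM of 12 genes in 10 RFP libraries (red) and 11 CRE libraries (blue), on linear axes from 0; lines are medians and the open diamond is CRE1-3. The upper row holds genes called lower in CRE and the lower row genes called higher, and Epha8, Epha6, Sema6a and Efna5 show no overlap of the groups.

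Plexins, the signalling receptors of semaphorins, were called in 4 of 9 cases, 1 higher and 3 lower. The 4 plexin A genes were among the abundant members, with 12.9 to 19.3 CPM per kb in RFP and Plxna1 the highest. Plxna1 had 237, 301 and 386 CPM in RFP and 199, 265 and 535 CPM in CRE, 535 CPM being CRE1-3, and was not called (log2 fold change -0.15, SE 0.14, adjusted p = 0.465), while without CRE1-3 it was at -0.29 (adjusted p = 0.0108). Plxna4, which with Nrp1 forms the receptor of Sema3a and with class 6 semaphorins shapes mossy fibre layers, was lower in CRE. It went from a median of 282 CPM (220 to 323) in RFP to 196 CPM (122 to 221) in CRE, with 10 of 11 CRE libraries below all RFP libraries and a log2 fold change of -0.55 (SE 0.10, adjusted p = 1.35e-04). Plxna2 and Plxna3 were at -0.27 (adjusted p = 0.111) and -0.21 (adjusted p = 0.253).

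The 3 plexin B genes were all called, in different directions. Plxnb2, which neural progenitors and glia as well as neurons use, had 106, 114 and 160 CPM in RFP and 137, 191 and 386 CPM in CRE, and 8 CRE libraries lay above all RFP libraries. Plxnb2 was 1.70-fold higher (log2 fold change 0.77, SE 0.15, adjusted p = 2.37e-04), and its differences were 0.75, 0.59 and 0.85 in the 3 cultures. Plxnb1, a receptor of Sema4d, was 1.52-fold lower, from a median of 133 CPM (89.2 to 169) to 80.3 CPM (52.2 to 189), with an adjusted p of 0.0114. The 189 CPM came from CRE1-3, and 8 other CRE libraries lay below all RFP libraries. Plxnc1 and Plxnd1, the receptors of Sema7a and Sema3e, were not called, at -0.30 (adjusted p = 0.450) and 0.41 (adjusted p = 0.286).

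Plxnb3 (ENSMUSG00000031385, chromosome X, 72800620-72816120) had the largest log2 fold change of the 63 members, -3.55 (SE 0.69, adjusted p = 2.76e-04), which is 11.7-fold lower. It had 0.206, 16.6 and 35.0 CPM in RFP and 0, 0.366 and 5.95 CPM in CRE. By culture, the RFP medians were 18.2, 22.4 and 8.17 CPM and the CRE medians 0.752, 0 and 3.13 CPM. In culture 3 the groups overlapped, since RFP3-1 had 0.206 CPM and CRE3-4 had 5.95 CPM. In the brain this receptor is known as a gene of oligodendrocyte lineage cells, and genes of that lineage moved with it. Sox10, the transcription factor of this lineage, had 8.77, 78.5 and 112 CPM in RFP and 0, 1.06 and 38.9 CPM in CRE (log2 fold change -3.13, SE 0.84, adjusted p = 0.00658). Pdgfra, the receptor that marks its precursors, ran from 51.4 to 324 CPM in RFP and from 0.136 to 174 CPM in CRE. RFP3-1, the RFP library lowest in Plxnb3, was also the lowest RFP library for Sox10 and Pdgfra, and CRE3-4, the CRE library highest in Plxnb3, was the highest for both. Of 9 marker genes of the lineage 8 were tested, and 5 were called, all lower. Their summed level was 647, 1503 and 1873 CPM in RFP and 425, 798 and 1910 CPM in CRE. The part of these cells in the lower level of Plxnb3 was not tested.

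**Figure D4:**
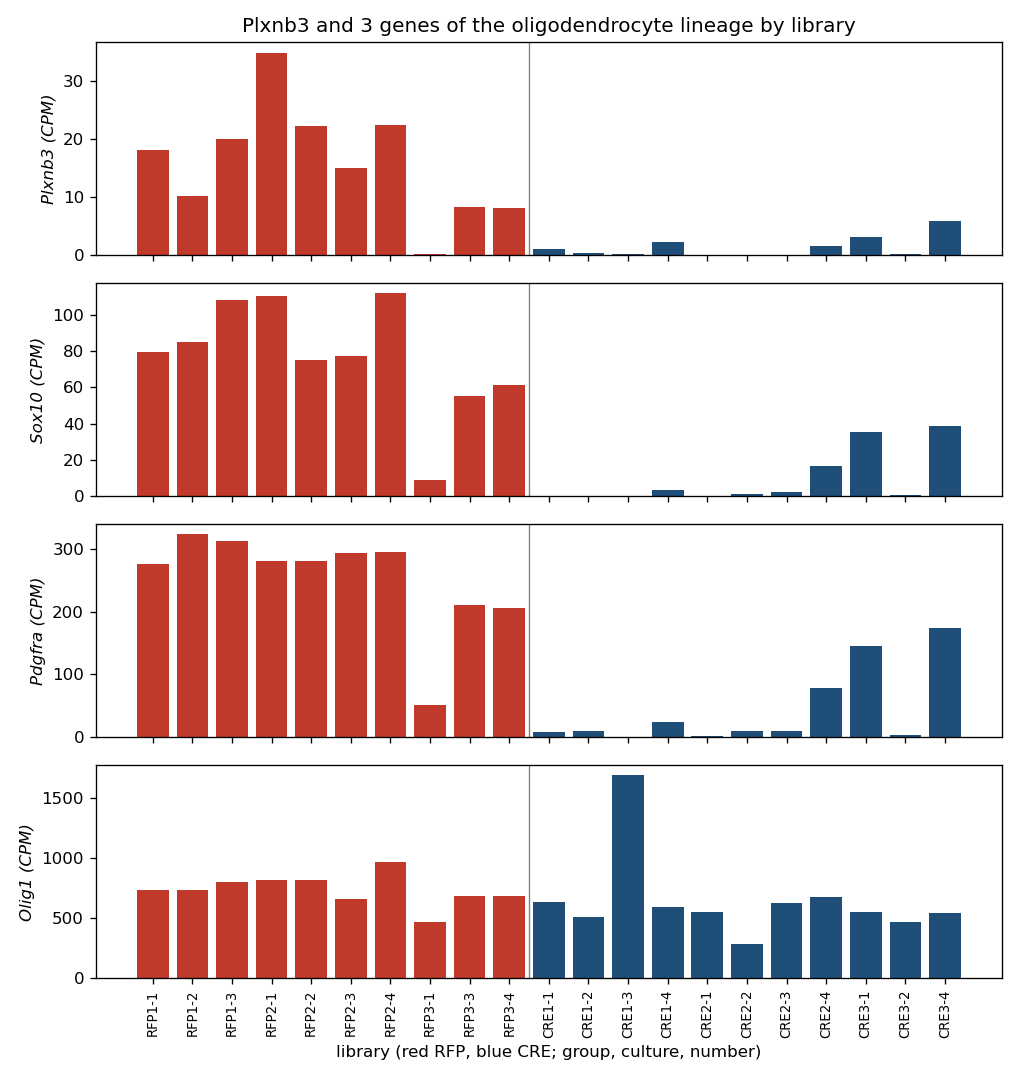
CPM of Plxnb3 and of Sox10, Pdgfra and Olig1, genes of the oligodendrocyte lineage, in each of 10 RFP (red) and 11 CRE (blue) libraries; bars start at 0. RFP3-1 is the lowest RFP bar for all 4 genes, and the CRE bars of CRE3-1 and CRE3-4 are the highest CRE bars for Plxnb3, Sox10 and Pdgfra, while Olig1 is highest in CRE1-3.

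Neuropilins bind class 3 semaphorins and VEGF but have no signalling domain of note. Nrp1, the Sema3a co-receptor, went from a median of 95.5 CPM (69.3 to 121) to 65.8 CPM (39.5 to 83.7), and 8 CRE libraries lay below all RFP libraries. The log2 fold change was -0.64 (SE 0.12, adjusted p = 2.75e-04). Nrp2, a co-receptor of Sema3f and the more abundant of the pair per kilobase (16.0 against 6.25 CPM per kb in RFP), had 139, 190 and 264 CPM in RFP and 91.0, 154 and 210 CPM in CRE. Its log2 fold change of -0.33 (SE 0.14) had an adjusted p of 0.0722. For the Sema3a system, then, the ligand was higher while Nrp1 and Plxna4 were lower, and Plxna1, Plxna2 and Plxna3 were not called. Nrp1 and Plxna4 kept their calls under all 14 alternatives, but Sema3a lost its call without culture 2 and also without culture 3. The differences of Sema3a were 0.23, 1.53 and 1.72 in cultures 1, 2 and 3.

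Ephrins were the family in which every tested member was called, 7 of 7, where 30.2% of all genes tested were. Of these, 4 were higher and 3 lower, with a median log2 fold change of 0.48. Efna2, Efna3, Efna4, Efnb1 and Efnb3 lost the call without culture 2, and Efna2, Efna3 and Efna4 also without culture 3. Only Efna5 and Efnb2 kept it under all 14 alternatives. Efna5, a repellent ligand that helps to map hippocampal projections, had 7.76, 15.4 and 19.3 CPM in RFP. In CRE it had 21.1, 26.2 and 42.0 CPM, with no overlap among the 21 libraries. It was 1.95-fold higher (log2 fold change 0.96, SE 0.17, adjusted p = 1.37e-04). Efna4 was 2.63-fold higher at a low level, with 0.413, 1.28 and 3.22 CPM in RFP and 0.341, 3.53 and 6.54 CPM in CRE (SE 0.46 on the log2 scale, adjusted p = 0.0212). Efna1 did not pass the filter and was not tested by edgeR. It was at 0, 0.229 and 1.11 CPM in RFP and at 0.171, 1.74 and 4.55 CPM in CRE, and 8 CRE libraries lay above all RFP libraries. DESeq2, which does not use that filter, called Efna1 higher (log2 fold change 2.38, adjusted p = 2.96e-04). In contrast, Efna2 was 1.85-fold lower (median 18.3 CPM, 14.7 to 25.7, in RFP and 8.80 CPM, 4.48 to 26.3, in CRE, adjusted p = 0.00821). Efna3 was 1.43-fold lower (median 71.6 CPM, 53.1 to 82.4, in RFP and 48.3 CPM, 28.9 to 101, in CRE, adjusted p = 0.0135). For both, 9 CRE libraries lay below all RFP libraries and CRE1-3 lay above them.

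Efna1, Efna3 and Efna4 lie side by side on chromosome 3, 32.8 kb and 10.4 kb apart in GRCm39, with no protein-coding gene between them. Within this cluster Efna3 was lower in CRE by -0.52 on the log2 scale and its neighbour Efna4 was higher by 1.40. Epha8, lower at -2.51, lies 93.4 kb from Ephb2, at 0.07 and not called, on chromosome 4. Sema3a and Sema3e, 422 kb apart on chromosome 5, were both higher, at 1.27 and 0.60, and Sema3d, 536 kb from Sema3a, was at -0.34 and not called. Robo1 and Robo2, 844 kb apart on chromosome 16 with no protein-coding gene between them, were both lower.

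The ephrin-B genes encode ligands that also signal back into the cell that bears them. Efnb3 was the most abundant of all 65 genes per kilobase in both groups, with 76.8 ± 15.1 CPM per kb in RFP (SD, n = 10) and 52.8 ± 13.3 in CRE (SD, n = 11). In CPM it had 179, 271 and 346 in RFP and 106, 197 and 256 in CRE, and was 1.47-fold lower (log2 fold change -0.56, SE 0.15, adjusted p = 0.00484). Efnb2 rose 1.40-fold, with 88.0, 106 and 132 CPM in RFP and 131, 153 and 173 CPM in CRE. All CRE libraries but 1 lay above all RFP libraries, and the SE of 0.09 on the log2 scale was the smallest among the ephrins (adjusted p = 2.01e-04). Efnb1 rose 1.75-fold, from a median of 22.7 CPM (16.9 to 36.2) to 34.5 CPM (30.4 to 113), with an adjusted p of 0.00455. The 113 CPM came from CRE1-3, and without it the log2 fold change of Efnb1 was 0.55 in place of 0.80 (adjusted p = 0.00153).

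Of the Eph receptors, 13 of 14 were tested and 7 were called, 2 higher and 5 lower. Epha1 did not pass the filter, with medians of 0.287 CPM in RFP and 0.419 CPM in CRE, and its exons overlap those of Zyx on the other strand by 1456 bases. The 2 members with the largest log2 fold changes below 0 after Plxnb3 were EphA receptors with no overlap of the groups among the 21 libraries. Epha8 (ENSMUSG00000028661, chromosome 4, 136656730-136684202) had 4.62, 10.3 and 15.9 CPM in RFP and 0.456, 1.57 and 3.62 CPM in CRE, 5.69-fold lower (log2 fold change -2.51, SE 0.32, adjusted p = 1.25e-06). Epha6 (ENSMUSG00000055540, chromosome 16, 59473846-60425894), an ephrin-A receptor of forebrain neurons, had 22.1, 31.5 and 45.4 CPM in RFP and 1.60, 6.67 and 15.8 CPM in CRE. It was 4.58-fold lower (log2 fold change -2.20, SE 0.29, adjusted p = 2.77e-06). Both held in each culture, with differences of -2.16, -2.50 and -2.17 for Epha8 and -3.07, -2.12 and -1.62 for Epha6. Both also held without CRE1-3, at -2.49 and -2.10. CRE3-3, outside the 21 libraries, had 13.6 CPM of Epha8, within the RFP range.

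The abundant EphA receptors were lower as well. Epha4, which binds ephrins of both classes, regulates dendritic spines and was the highest Eph receptor per kilobase in RFP (34.4 CPM per kb), went from 183, 282 and 421 CPM to 98.1, 186 and 258 CPM. The log2 fold change was -0.73 (SE 0.16, adjusted p = 0.00120), with differences of -0.61, -0.20 and -1.54 in cultures 1, 2 and 3. Epha5, a receptor of Efna5, went from a median of 232 CPM (150 to 411) to 119 CPM (16.1 to 226), 2.06-fold lower (SE 0.28 on the log2 scale, adjusted p = 0.00523), and 7 CRE libraries lay below all RFP libraries. Epha7 was not called over the 21 libraries (log2 fold change -0.51, SE 0.20, adjusted p = 0.0579) and was at -0.40 (adjusted p = 0.00465) without CRE1-3, which had 9.67 CPM of it. Epha3 and Epha10 were not called, at -0.33 and 0.26. Thus 4 of 8 tested EphA genes were lower and 1 was higher, while of 4 tested ephrin-A genes 2 were higher and 2 lower.

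The receptor that was higher, Epha2, is known from epithelia and progenitor cells and was near the limit of detection in RFP, at 0, 0.406 and 2.06 CPM. In CRE it had 0, 2.43 and 7.08 CPM, and 6 CRE libraries lay above all RFP libraries (log2 fold change 1.99, SE 0.60, adjusted p = 0.0133). Without CRE1-3, which had the 7.08 CPM, it was at 1.71 (adjusted p = 0.0198). Ephb4, the vascular receptor of Efnb2, was higher, from a median of 3.14 CPM (1.84 to 6.26) to 8.12 CPM (2.99 to 24.0), with a log2 fold change of 1.14 (SE 0.34, adjusted p = 0.0126). The 24.0 CPM came from CRE1-3, and without that library Ephb4 was at 0.86 (adjusted p = 0.0233). Epha2 and Ephb4 both lost the call without culture 1. Ephb3 was lower, from a median of 18.3 CPM (12.8 to 24.4) to 10.4 CPM (6.46 to 23.3), with a log2 fold change of -0.56 (SE 0.22, adjusted p = 0.0490) that held without only 8 of the 21 libraries and had the opposite sign, 0.28, in culture 3. Ephb1, Ephb2 and Ephb6 were not called, at 0.30 (adjusted p = 0.197), 0.07 (adjusted p = 0.808) and 0.05 (adjusted p = 0.877). Ephb6 shares 1112 exonic bases with Trpv6 on the other strand.

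Slits are large secreted repellents. Slit1, the member enriched in neurons and the highest of the 3 per kilobase in RFP (8.59 CPM per kb), had 57.2, 74.9 and 107 CPM in RFP. In CRE it had 22.4, 29.5 and 105 CPM, where 105 CPM was CRE1-3 and the 10 other libraries lay below all RFP libraries. Slit1 was 2.12-fold lower (log2 fold change -1.09, SE 0.22, adjusted p = 3.71e-04), and without CRE1-3 the log2 fold change was -1.38 (adjusted p = 6.19e-10). Slit2 was at 0.05 (SE 0.14, adjusted p = 0.835). Slit3 was not called over the 21 libraries, at -0.54 (SE 0.28, adjusted p = 0.157), but was at -0.91 (adjusted p = 2.36e-04) without CRE1-3, which had 51.2 CPM of it against at most 32.7 CPM in RFP.

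Of the Robo receptors that bind slits, 2 of 3 were called, both lower. Robo1 went from 43.1, 64.5 and 94.6 CPM to 16.2, 33.9 and 57.2 CPM, 1.89-fold lower (log2 fold change -0.92, SE 0.19, adjusted p = 5.02e-04), with 9 CRE libraries below all RFP libraries. Robo2, the highest of the family per kilobase in RFP (4.38 CPM per kb), went from 67.2, 101 and 154 CPM to 9.94, 70.7 and 98.0 CPM. Its log2 fold change of -0.63 (SE 0.24, adjusted p = 0.0441) held without 14 of the 21 libraries, and 9.94 CPM was CRE1-3. Without that library Robo2 was at -0.51 (adjusted p = 0.00748). Robo3, which is spliced to control midline crossing and binds Nell2 rather than slits, was at -0.21 (SE 0.35, adjusted p = 0.712). Summed over the 3 Robo genes, 10 of 11 CRE libraries lay below all RFP libraries, at 32.3 to 158 CPM against 137 to 222 CPM.

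None of the 3 netrins was called by edgeR, and none had an unadjusted p under 0.05 or was called by DESeq2. Ntn4, a laminin-binding netrin and the highest per kilobase in RFP (4.51 CPM per kb), had 9.97, 17.3 and 27.5 CPM in RFP and 6.77, 28.7 and 34.0 CPM in CRE (log2 fold change 0.39, SE 0.25, adjusted p = 0.260). Ntn1 and Ntn3 were at 0.25 (SE 0.25, adjusted p = 0.491) and 0.22 (SE 0.22, adjusted p = 0.494). The standard errors leave room for a change of either sign.

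Their Unc5 receptors moved in both directions. Unc5b (ENSMUSG00000020099, chromosome 10, 60598372-60667396), a netrin receptor of vessels and neurons and a known target of p53, had 8.31, 14.3 and 23.8 CPM in RFP and 21.2, 37.8 and 110 CPM in CRE. It was 2.67-fold higher (log2 fold change 1.42, SE 0.24, adjusted p = 7.41e-05), 9 CRE libraries lay above all RFP libraries, and without CRE1-3, which had 110 CPM, the log2 fold change was 1.16. Unc5c was 2.11-fold lower, from 51.4, 102 and 126 CPM to 2.72, 49.0 and 79.1 CPM (log2 fold change -1.07, SE 0.27, adjusted p = 0.00370). The lowest value, 2.72 CPM, was CRE1-3, and 8 CRE libraries lay below all RFP libraries. Unc5a, the highest of the family per kilobase in RFP (20.7 CPM per kb), depended on that library. It had 83.6, 114 and 129 CPM in RFP and 47.3, 63.4 and 305 CPM in CRE. CRE1-3 had 305 CPM and the 10 others were lower than any RFP library. Over the 21 libraries the log2 fold change of Unc5a was -0.38 (SE 0.25, adjusted p = 0.268), and without CRE1-3 it was -0.80 (adjusted p = 2.66e-07). Unc5d, which also binds Flrt2, was at -0.23 (SE 0.29, adjusted p = 0.604).

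**Figure D5:**
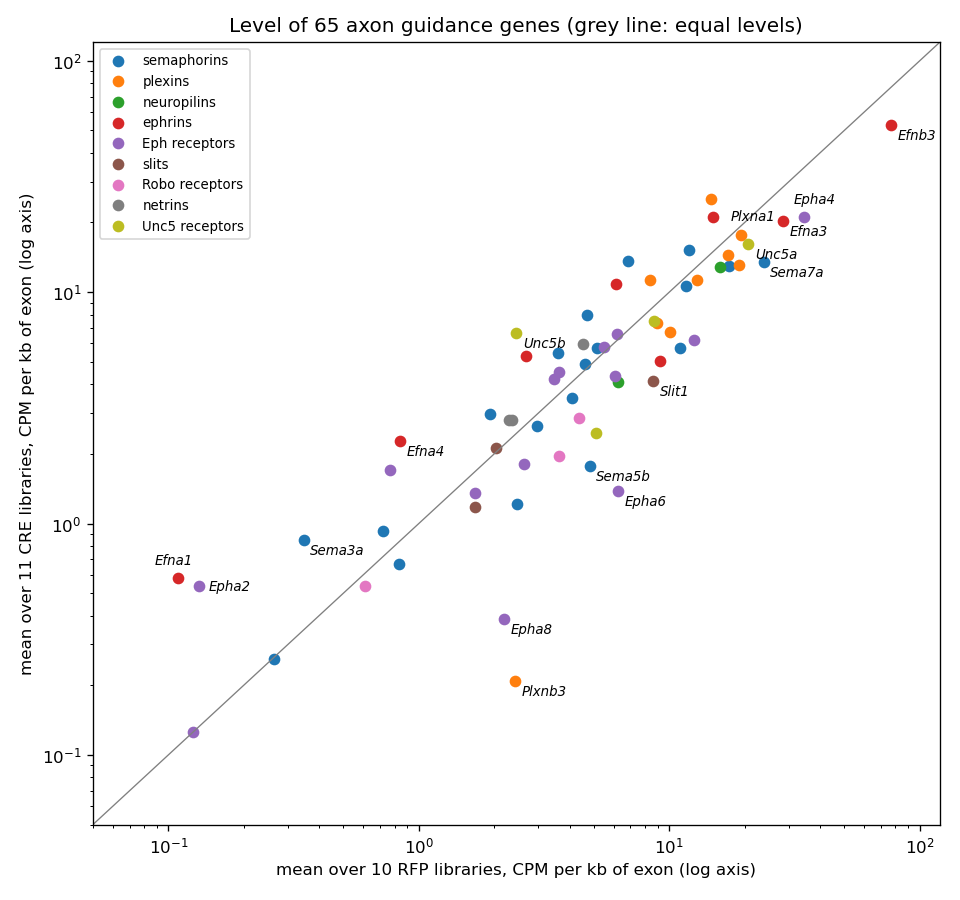
Mean level of the 65 genes per kilobase of exon over 10 RFP libraries (x axis) and 11 CRE libraries (y axis), both in CPM per kb on log axes, coloured by family; the grey line marks equal levels. Efnb3 is the highest in both groups, and Plxnb3, Epha8 and Epha6 lie far below the line, while Epha2, Efna1 and Efna4 lie above it.

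The order of levels changed near the top. In RFP the 5 highest genes per kilobase were Efnb3, Epha4 (34.4 ± 8.60 CPM per kb, SD, n = 10), Efna3 (28.4 ± 4.03), Sema7a (23.8 ± 6.77) and Unc5a (20.7 ± 2.80). Apart from Efnb3 these neighbours in the order lay within their spread over libraries. In CRE Efnb3 was followed by Plxnb2 (25.3 ± 8.34 CPM per kb, SD, n = 11), Efnb2 (21.2 ± 1.79), Epha4 (21.1 ± 6.03) and Efna3 (20.2 ± 7.43), which again overlapped. Plxnb2 had been at rank 12 in RFP and Efnb2 at rank 11, and Sema7a stood at rank 11 in CRE. Summed over the 32 receptors, CRE libraries had 1997, 2426 and 2907 CPM and RFP libraries 2810, 2973 and 3517 CPM, and 10 of 11 CRE libraries lay below all RFP libraries. Summed over the 33 ligands the ranges were 1276 to 2272 CPM in CRE (median 1655) and 1462 to 1917 CPM in RFP (median 1699), with 3 CRE libraries below and 1 above all RFP libraries. These sums are dominated by the abundant genes and were not tested.

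The 63 tested members had a median GC content of 55.5% in their Ensembl canonical transcripts, against 50.1% over all genes tested. Their median gene span was 69.0 kb against 25.5 kb. Members called higher and lower differed less in GC, at 57.1% and 56.0%. The called higher ones had a lower median level in RFP, 3.14 CPM per kb against 7.42 CPM per kb for those called lower, and over all genes the same medians were 2.30 and 8.75. After a correction for the dependence of counts on GC content, fitted per library, 41 members were called, all 34 among them, against 37.7% of all genes.

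A list of 97 further axon guidance genes, co-receptors, adhesion molecules and cytoplasmic effectors outside these families, gave the setting of the members. Of its 95 tested genes 33 were called, 15 higher and 18 lower, or 34.7% against 30.2% of all genes, with a median log2 fold change of -0.08. Without CRE1-3 the count was 47, against 38.0% of all genes. Nrg1 of this list was matched to an annotated entry of 186 exon bases without reads. Another annotated gene of the same symbol was not read out. The lower genes with the largest log2 fold changes were Cntn2 (-1.69, SE 0.20), an axonal adhesion molecule, its relative Cntn1 (-1.15, SE 0.21), Flrt1 (-1.03, SE 0.15), of the family of Unc5 ligands, Dpysl3 (-1.01, SE 0.13), a collapsin response mediator that acts below semaphorin receptors, and Dscam (-0.90, SE 0.11), which can serve as a netrin receptor. In all 5 every CRE library lay below every RFP library. The higher ones were Plxdc1 (2.67, SE 0.57), Vav3 (1.74, SE 0.25), an exchange factor that Eph receptors recruit, Vasp (1.10, SE 0.15), an actin regulator at growth cone tips, Mical1 (0.96, SE 0.32), a plexin effector that oxidises actin, and Rgma (0.84, SE 0.23), a repellent that binds Neo1. Vasp had no overlap of the groups. Rgma was at 0.54 without CRE1-3 and CRE3-3 and with RFP3-2 added, as 522 CPM of it were in CRE1-3.

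Partners of members in that list bear on several pairs. Dcc, the attractive netrin receptor, had 33.4, 82.6 and 92.6 CPM in RFP and 5.86, 56.2 and 76.2 CPM in CRE and was just above the threshold (log2 fold change -0.61, SE 0.24, adjusted p = 0.0555). Neo1, its relative, was lower by -0.41 (SE 0.10, adjusted p = 0.00371). Nell2, the ligand of Robo3, had 298, 367 and 488 CPM in RFP and 142, 209 and 268 CPM in CRE, without overlap (log2 fold change -0.88, SE 0.12, adjusted p = 1.93e-06). The slit and Robo effectors Srgap1, Srgap2 and Srgap3 were not called, at 0.11, 0.09 and -0.10, and neither was the EphA effector Ngef, at 0.39.

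Cell type markers differed between the groups beside these genes, in lists of 3 to 9 genes. Neuronal markers were present at high level in all libraries, and of 8 tested 6 were called, all lower. Their summed level was 5877, 6706 and 7096 CPM in RFP and 2561, 4553 and 5529 CPM in CRE, below all RFP libraries in all 11 CRE libraries. Among them were Map2 (-0.67), Syt1 (-0.91) and Stmn2 (-0.80). Of the 7 glutamatergic markers 4 were lower and 1 higher, with Camk2a at -1.99, Slc17a7 at -1.88 and Neurod6 at -1.92, and their sum lay below all RFP libraries in all 11 CRE libraries, at 716 to 1503 CPM against 2034 to 4022 CPM. Of the 9 GABA neuron markers 3 were higher and 1 lower, with Gad1 at -0.20 and Gad2 at -0.39 not called and Sst at -1.07 called, and the sums overlapped (920 to 1858 CPM in CRE, 1108 to 2347 CPM in RFP). Dentate granule markers were lower in 2 of 3 cases, Prox1 at -0.66 and Dsp at -0.99, with Calb1 at -0.55 not called and sums of 49.2 to 214 CPM against 139 to 281 CPM. Of 3 tested Cajal-Retzius markers Calb2 was lower (-1.39), while Reln (-0.66) and Trp73 (0.55) were not called, and the sums were 130 to 340 CPM against 220 to 630 CPM. The part of these shifts in the lower levels of Epha6, Epha8, Sema5b, Slit1 and other neuronal members was not tested.

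Other cells of the culture were measured in the same way. Of 8 astrocyte markers 4 were lower and 1 higher, with Slc1a2 at -0.79 and Aldoc at -0.64 called and Slc1a3 at -0.10 not, and sums of 1559 to 5126 CPM in CRE against 3612 to 7845 CPM in RFP. Olig1 (-0.21, not called) and Olig2 (-1.0, called) were the other abundant genes of the oligodendrocyte lineage. Of 6 progenitor markers 5 were tested, 1 was higher and 3 were lower. Nes was higher (2.93), with 605 to 1574 CPM in CRE against 94.8 to 147 CPM in RFP, Mki67, a marker of dividing cells, was lower (-1.93), and Sox2 was at 0.04. The sums, with Nes included, were 756 to 1768 CPM against 341 to 458 CPM. Mural cell markers were higher in 2 of 3 tested cases, Rgs5 at 2.52 and Notch3 at 0.66, with Acta2 at -0.07 not called, and their sum lay above all RFP libraries in 10 CRE libraries (51.8 to 276 CPM against 18.9 to 76.7 CPM). Of 6 fibroblast markers 1 was called, higher, while Dcn (-1.08), Col1a1 (1.18) and Col3a1 (1.47) were not, and the sums were 13.8 to 377 CPM against 14.9 to 136 CPM. Endothelial genes were near 0, with Cldn5 at 3 reads or fewer in each library, Kdr alone tested and lower (-1.22), Pecam1 and Cdh5 at medians under 1 CPM, and sums of 1.09 to 10.2 CPM against 2.75 to 9.85 CPM. Sums over 7 microglial markers were 0.171 to 4.35 CPM against 1.03 to 6.64 CPM, and Csf1r (-1.02) was not called, while P2ry12 and Aif1 were not tested. Epha2, Ephb4, Efnb2, Plxnb2 and Unc5b, which cells outside the neuronal lineage also express, were higher in CRE. Plxnb3, a gene of oligodendrocyte lineage cells, was lower (-3.55), as was Nrp1 (-0.64), which also binds VEGF. The members named here are examples and not a full set. Among markers of such cells Nes, Rgs5 and Notch3 were higher and Mki67 and Kdr lower. Sox2 was at 0.04 and Acta2 at -0.07. The part of such cells in the levels of these members was not tested.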

How the data were processed

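RNA of primary hippocampal cultures was measured in 23 libraries, 12 CRE and 11 RFP, prepared with Illumina Stranded mRNA Prep and sequenced on a NovaSeq6000. The authors aligned reads with STAR 2.7.8a to GRCm39 and Ensembl release 110, with up to 2 mismatches in 50 bases, and assigned them to genes by featureCounts 1.5.0-p1 (bcl2fastq 2.20.0.422 for demultiplexing, versions from the submitters' processing notes). They deposited whole-number counts per gene for each library, without normalization. The strand setting and the handling of multiply mapping reads were not given in the sources used here, so counts of overlapping or near-identical genes are uncertain.

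The main comparison used the 21 libraries of the study's count table, which leaves out CRE3-3 and RFP3-2. Methods names CRE1-3 and CRE3-3 instead, and both other sets were alternatives. Counts were tested with edgeR 4.0.16 in R 4.3.3 (filterByExpr, TMM, robust glmQLFit, glmQLFTest), over 14488 genes, with the standard error taken as the log2 fold change divided by the root of F. CPM used TMM factors over 14382 genes in all 23 libraries. Differences within cultures are of mean log2(CPM + 0.5). Exon lengths, gene spans, overlaps and windows of 250 bases came from the GENCODE M39 annotation of GRCm39, the build the study used but a later release, which named 56323 of 56941 genes. Python (numpy 2.4.6, pandas 2.3.3, matplotlib 3.10.9) was used for all else. The fits were tested on simulated data. No pair of libraries among 121 compared within groups held identical counts, and the lowest chi-square per degree of freedom was 10.9.

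Members and gene lists were chosen with earlier results of these data known. Named in full are up to 30 called members with the largest absolute log2 fold change and the member of each of the 9 families with the highest RFP level per kilobase. Of the other axon guidance genes 5 called in each direction are named, and of each marker list up to 3 genes, by mean CPM. Efnb2, Efna3, Plxna4 and Sema6d are called members beyond these 30. Sox10, Dcc, Neo1, Nell2, the Srgap genes and Ngef were chosen after their values were seen. Alternatives were all 23 libraries, those of Methods, those without 3 GC-skewed libraries, DESeq2 1.42.0, RLE factors, no filter, blocks for culture or library number, sums per culture, each culture left out, and a GC correction. Leaving out CRE1-3 with RFP2-4, and each library in turn, was added after seeing the data. A further gene of the microglial list is not reported here, and the list was summed without it.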

Additional observations from a re-analysis of the deposited data

Results flagged for a closer look

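Among the 10 RFP libraries, 1 library stood apart from the rest in 5 of 65 members, where chance gives about 1 in 20. For each, the gap between the extreme library and its neighbour took a larger share of the whole range than expected of 10 values. Sema3e was highest in RFP1-3, at 42.2 CPM, with the next library at 23.6 CPM. Plxnc1 was highest in RFP2-3, at 150 CPM, with the next at 84.6 CPM. The other 3 flags fell on RFP2-4, the RFP library with the low mitochondrial share. Sema3f was highest there, at 12.9 CPM against 5.25 CPM in the next library, and Ephb6 was highest, at 79.5 CPM against 46.5 CPM. Epha3 was lowest there, at 6.45 CPM against 13.4 CPM. The CRE group, with 11 libraries, was not examined in this way.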

How the results depend on the processing

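Without culture 2, 8 members were called higher, 11 lower, and 15 of the other axon guidance genes, against 14, 20 and 33 over the 21 libraries. Over all fits without 1 culture or 1 library the counts ran from 8 to 14 higher and from 11 to 25 lower members, and from 15 to 47 other genes, where 25 and 47 were reached without CRE1-3. Under the remaining alternatives each count stayed within 1.5 times its value. No called member turned direction under any alternative, and 13 of the 34 (5 higher, 8 lower) were called under all 14 that changed the libraries, tool, scaling, filter, block or GC: Sema4f, Sema5b, Sema6a, Plxna4, Plxnb2, Plxnb3, Nrp1, Efna5, Efnb2, Epha6, Epha8, Slit1 and Unc5b. DESeq2 called 36 members, the libraries of Methods gave 38, and all 23 libraries gave 30, without Sema6d, Plxnb1, Efna2 and Ephb3. The cause of these changes was not tested. Without CRE1-3 and RFP2-4, 42 were called.

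The culture numbers were used as a replicate block only as an alternative, since same-numbered CRE and RFP libraries deviated together with correlations of 0.05, 0.03 and 0.14 in cultures 1, 2 and 3, and nothing states that they are paired. CRE culture 1 correlated best with RFP culture 2, and CRE culture 2 with RFP culture 3. Without CRE1-3 and RFP2-4 the same-numbered correlations were 0.07, 0.19 and 0.09. Each CRE culture then correlated best with the RFP culture of its own number. With this replicate block 14 members were called higher and 20 lower, with Ephb3 lost and Slit3 gained. With a block for the library number 13 were higher and 20 lower. Depth limits Efna1, Epha1, Epha2, Efna4 and Sema3b, and Plxnb3 and Epha8 in CRE, which rest on few reads per library.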
